A study of Mus musculus with 20 samples.

Results

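Epicardial marker genes were followed in embryonic mouse hearts with an extra copy of part of chromosome 16. The 10 genes, Wt1, Tbx18, Tcf21, Upk3b, Upk1b, Aldh1a2, Msln, Krt19, Sema3d and Bnc1, were taken by name out of 48795 genes in the table, and each symbol matched 1 gene. All 10 had reads in all 20 hearts, from 61 to 1941 reads per heart, and all 10 entered each test. No member lies within the duplicated segment. Only Upk1b is on chromosome 16, and it lies on the near side of Mir802, where the longer of the segments begins.

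RNA sequencing (RNAseq) of poly(A) RNA was carried out on whole hearts at E13.5, where E is the embryonic day, in 4 groups of 5 hearts. Dp3Tyb embryos carry the duplication Dp(16Mir802-Zbtb21)3TybEmcf and Ts1Rhr embryos the shorter duplication Dp(16Cbr1-Fam3b)1Rhr, and each strain was compared with its own wildtype (WT) littermates, all on a C57BL/6J background. The labels place all 5 Dp3Tyb hearts and Ts1Rhr replicates 1 and 2 among hearts with defects and Ts1Rhr replicates 3, 4 and 5 among those without, whereas the study describes Ts1Rhr embryos as free of congenital heart defects (CHD). Replicates are separate embryos, and replicate numbers only name a heart.

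The epicardium is the mesothelial sheet that covers the heart. It forms from cells of the proepicardium that attach to the myocardium, and part of it later undergoes epithelial to mesenchymal transition (EMT) and gives rise to fibroblasts and the mural cells of coronary vessels. Wt1, Tbx18 and Tcf21 are the transcription factors by which epicardial cells and their progeny are usually recognised, Upk3b, Upk1b, Msln and Krt19 are genes of mesothelial surface and cytoskeleton, and Aldh1a2 and Sema3d encode an enzyme and a ligand of epicardial signalling. The mesothelium that covers the lung and other organs uses several of the same genes. In RNA from a whole heart, fewer epicardial cells and less RNA per cell cannot be told apart.

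The genotype labels were checked on the extra segments. Of the protein-coding genes tested, 27 of 27 in the Dp3Tyb segment had a higher mean in Dp3Tyb hearts (median 1.44-fold), and 21 of 22 in the Ts1Rhr segment had a higher mean in Ts1Rhr hearts (median 1.41-fold). Libraries held 6.60 M to 19.6 M reads (M, mega), and mitochondrial transcripts took 4.85% to 19.5% of them. This share was over 10% in 7 hearts, namely WT replicate 5 of the Dp3Tyb cohort, Dp3Tyb replicate 5, Ts1Rhr replicates 1 and 2, and WT replicates 1, 2 and 4 of the Ts1Rhr cohort. A cohort is a strain with its littermates. Cardiomyocyte markers dominated every heart (summed value of the 10 markers, 242740 to 473730), in accord with the tissue label. Markers of lung and foregut were found in many hearts at very different levels, as set out after the comparisons.

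The promoters of Tbx18, Tcf21, Upk3b and Bnc1 are shown because these 4 members moved together from heart to heart in every pair, as described after the comparisons. Once the mitochondrial share of reads was also removed, r over their 6 pairs ran from 0.24 for Tcf21 and Bnc1 to 0.76 for Tbx18 and Tcf21. Each window runs from 250 bases before to 50 bases after the start of the gene, 5′ to 3′ on the strand of the gene (RefSeq, GRCm38.p6). Windows for 6 of the 10 members were in the table used, those of Tbx18, Tcf21, Upk3b, Aldh1a2, Sema3d and Bnc1. Capitals mark matches, on either strand, to 4 motifs. These were GGAATG, commonly read by TEAD factors, the E-box CAGCTG of bHLH proteins such as Tcf21, AGATAA, which proteins of the GATA family bind, and GGTGTGA, the core letters of a T-box site. The letters of the motifs do not overlap one another in these windows.
Tbx18 (chr9:87731211-87731510, minus strand): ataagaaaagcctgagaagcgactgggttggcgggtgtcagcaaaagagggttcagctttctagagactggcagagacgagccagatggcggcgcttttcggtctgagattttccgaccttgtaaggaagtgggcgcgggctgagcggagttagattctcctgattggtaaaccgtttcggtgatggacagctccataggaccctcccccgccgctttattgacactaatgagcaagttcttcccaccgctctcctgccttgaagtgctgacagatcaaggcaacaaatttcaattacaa
Tcf21 (chr10:22820094-22820393, minus strand): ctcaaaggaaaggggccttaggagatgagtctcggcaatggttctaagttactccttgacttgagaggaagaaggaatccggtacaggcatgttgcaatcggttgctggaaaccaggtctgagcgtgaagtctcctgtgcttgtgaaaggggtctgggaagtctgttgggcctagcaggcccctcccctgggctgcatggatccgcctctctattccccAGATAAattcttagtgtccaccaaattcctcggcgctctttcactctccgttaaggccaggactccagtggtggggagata
Upk3b (chr5:136038246-136038545, plus strand): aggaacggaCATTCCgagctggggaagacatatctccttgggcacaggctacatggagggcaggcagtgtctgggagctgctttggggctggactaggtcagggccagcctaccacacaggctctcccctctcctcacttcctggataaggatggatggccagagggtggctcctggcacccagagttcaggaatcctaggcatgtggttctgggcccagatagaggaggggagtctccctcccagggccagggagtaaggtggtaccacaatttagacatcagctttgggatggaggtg
Bnc1 (chr7:81992250-81992549, minus strand): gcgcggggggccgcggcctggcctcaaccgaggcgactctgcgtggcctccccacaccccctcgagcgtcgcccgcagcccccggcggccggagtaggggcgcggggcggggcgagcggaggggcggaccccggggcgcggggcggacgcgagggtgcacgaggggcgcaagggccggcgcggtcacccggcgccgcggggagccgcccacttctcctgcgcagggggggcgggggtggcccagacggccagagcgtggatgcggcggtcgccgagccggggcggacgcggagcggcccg

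Among the 6 windows the GATA motif was found once, in Tcf21, beginning 31 bases before the start, and the TEAD motif once, in Upk3b, beginning 241 bases before the start. No window held the E-box or the T-box motif as spelled here. Over all 32851 promoters of the same length, 14.7% held the TEAD motif, 16.3% the E-box, 11.2% the GATA motif and 3.98% the T-box motif. The windows differed widely in base composition, from 49.7% G and C in Sema3d and 51.7% in Tbx18 to 78.0% in Aldh1a2 and 83.3% in Bnc1, against a median of 52.7% over all promoters.

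The members were expressed at levels that differed several fold among themselves. Divided by the length in kilobases (kb) of the canonical transcript, the normalised level over the 20 hearts was 378 ± 45.8 (SD) for Upk3b and 362 ± 46.8 for Krt19, and Upk3b was above Krt19 in 11 of 20 hearts, so these neighbours did not differ beyond their spread. Tbx18 followed at 268 ± 27.2, Aldh1a2 at 232 ± 29.7, Tcf21 at 214 ± 32.5, Wt1 at 192 ± 30.9 and Sema3d at 167 ± 20.9. Tbx18 was above Aldh1a2 in 17 hearts, Aldh1a2 above Tcf21 in 12, Tcf21 above Wt1 in 16 and Wt1 above Sema3d in 17. The least abundant were Msln at 85.4 ± 20.4, Bnc1 at 61.5 ± 6.55 and Upk1b at 58.6 ± 7.48. Sema3d was above Msln in 20 of 20 hearts, while Bnc1 was above Upk1b in 12. Within groups the coefficient of variation (CV) of a member was 10.9% for Tbx18 at the lowest and 24.4% for Msln at the highest, beside a median of 15.4% over 15348 genes. Counting error alone gives a CV of 2.81% to 7.17%, and the remainder holds differences between hearts and between library preparations, which cannot be told apart. Values below are normalised reads, that is, reads divided by the size factor of the library.

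**Figure D1:**
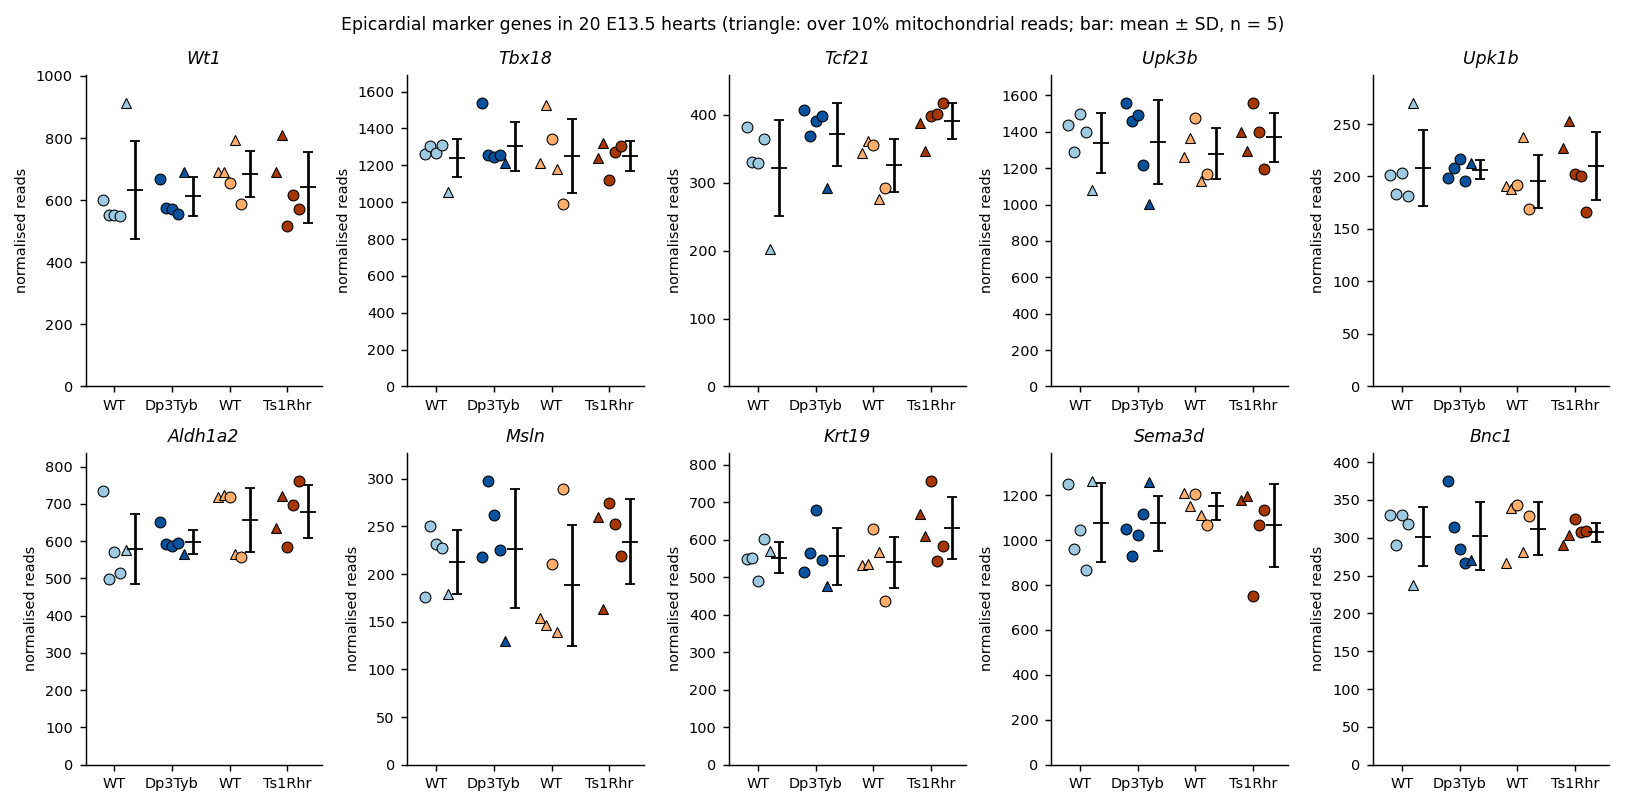
Normalised reads of the 10 epicardial marker genes in each of the 20 hearts, by group, with the mean ± SD (n = 5) to the right of the points and triangles for hearts with over 10% mitochondrial reads. Mutant and WT hearts overlap for every gene, and WT replicate 5 of the Dp3Tyb cohort is the highest heart for Wt1 (913) and the lowest for Tcf21 (203).

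None of the 10 genes differed between Dp3Tyb and WT hearts or between Ts1Rhr and WT hearts in limma after adjustment over all genes tested. In Dp3Tyb hearts 8 of 10 had a higher mean on the log2 scale, with log2 fold changes from -0.02 (Wt1) to 0.23 (Tcf21) and a median of 0.0045. In Ts1Rhr hearts 7 of 10 had a higher mean, with log2 fold changes from -0.13 (Sema3d) to 0.35 (Msln) and a median of 0.07. The medians over all genes tested were -0.0027 and -0.0016. The 95% confidence intervals of the fold changes spanned at most 0.760 to 1.51 for any member in Dp3Tyb hearts and at most 0.769 to 1.73 for any in Ts1Rhr hearts, so that a halving or a doubling of any member lay outside its interval.

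In the test of Dp3Tyb against WT, 8 of 14763 genes (0.0542%) passed an adjusted P-value threshold of 0.05, and 0 of the 10 members did so. At an unadjusted P-value below 0.05 the counts were 413 genes (2.8%) and 0 members. In the test of Ts1Rhr against WT, 4 of 14867 genes (0.0269%) passed, again with 0 members, and at the unadjusted threshold 821 genes (5.52%) and 1 member, Tcf21, did so. Of the genes called, 7 of the 8 and 4 of the 4 were protein-coding genes within the duplicated segment. The other 20 of 27 and 18 of 22 coding genes tested there did not pass, so that 0 calls among the members stands beside a test in which most genes with an extra copy were not called. DESeq2 and edgeR run on reads recovered from the values called 0 members in either strain, with 0 unadjusted in Dp3Tyb and 1 in Ts1Rhr. Without the 7 hearts over 10% mitochondrial reads, which left 4 against 4 and 3 against 2, limma called 0 members, and the median log2 fold change of the 10 genes was 0.07 in each strain. All 5 mutant hearts lay apart from all 5 WT hearts for 0 of 10 members in each strain, beside 0.975% of all genes with Dp3Tyb and 1.12% of all genes with Ts1Rhr.

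**Figure D2:**
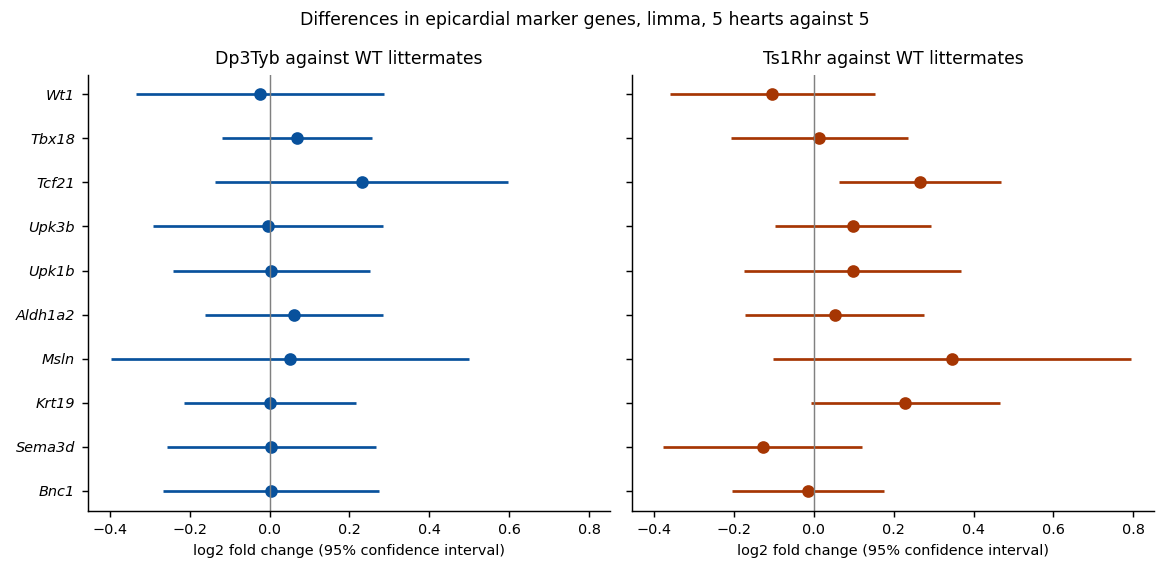
Log2 fold change (horizontal axis, point) with its 95% confidence interval (line) for each epicardial marker gene, Dp3Tyb on the left and Ts1Rhr on the right, from limma on 5 hearts against 5. Intervals cross 0 for 10 of 10 genes in Dp3Tyb and for 9 of 10 in Ts1Rhr, the exception being Tcf21 before adjustment (0.06 to 0.47).

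Of the transcription factors, Wt1 (chr2:105126529-105173614), a zinc finger protein needed for the formation of the epicardium, was read at 669, 574, 573, 557 and 691 in Dp3Tyb replicates 1 to 5 and at 600, 552, 551, 550 and 913 in their WT littermates. The groups overlapped, and WT replicate 5 stood far above the other hearts of its cohort. Its values were 691, 809, 516, 616 and 572 in Ts1Rhr hearts and 692, 690, 654, 792 and 589 in the WT hearts of that cohort. Here too the groups overlapped, and the hearts with a large mitochondrial share were the high ones in both. The log2 fold change was -0.02 ± 0.14 (SE) in Dp3Tyb and -0.10 ± 0.12 in Ts1Rhr (limma, adjusted P = 1.0 and 0.807). A gene on the opposite strand, Wt1os, overlaps Wt1 and was itself at 10.8 to 32.5, and whether the counting used strand is not given in the sources used here.

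Tbx18 (chr9:87702800-87731260), a T-box factor of the proepicardium and epicardium, was the steadiest member. Dp3Tyb hearts had 1539, 1254, 1246, 1258 and 1214 normalised reads, against 1260, 1306, 1269, 1309 and 1057 in WT. Apart from a high Dp3Tyb replicate 1 and a low WT replicate 5, the 8 other hearts lay close together. Ts1Rhr hearts had 1241, 1319, 1118, 1271 and 1305, against 1211, 1528, 1342, 1179 and 991 in WT. The WT hearts held both the highest and the lowest value of that cohort. The log2 fold changes were 0.07 ± 0.09 (SE) and 0.01 ± 0.10 (limma, adjusted P = 1.0 and 0.976). Tbx18 shares its locus with an opposite-strand gene, D030062O11Rik, at 2.58 to 18.4.

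Tcf21 (chr10:22817263-22820143), a bHLH factor of the epicardium and of the cells that become cardiac fibroblasts, came nearest to a difference. In Ts1Rhr it was at 388, 347, 398, 400 and 417, against 343, 361, 355, 276 and 293 in WT, with means of 390 ± 26.5 and 326 ± 38.8 (SD, n = 5). All 5 Ts1Rhr hearts were above the WT mean, but replicate 2 lay below 2 WT hearts. The log2 fold change was 0.27 ± 0.09 (SE), 1.2-fold with a 95% confidence interval of 1.04 to 1.38, and limma gave an unadjusted P of 0.0148 and an adjusted P of 0.795. Tcf21 in Dp3Tyb was at 406, 369, 391, 398 and 292, against 381, 330, 329, 364 and 203 in WT. In both groups replicate 5, with its large mitochondrial share, was the lowest heart, and 4 of 5 Dp3Tyb hearts were above the WT mean. The log2 fold change of 0.23 ± 0.17 (limma, adjusted P = 1.0) became 0.07 without WT replicate 5, and with the mitochondrial share as a covariate, an alternative added after the data were seen, it was 0.21 with an unadjusted P of 0.0029 and an adjusted P of 0.213.

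Bnc1 (chr7:81966657-81992299), which encodes the zinc finger protein basonuclin 1 of mesothelium and stratified epithelia, was at 375, 315, 285, 266 and 270 in Dp3Tyb and at 330, 290, 330, 318 and 238 in WT. The Dp3Tyb hearts lay within the WT range except for replicate 1, which was above it. It was at 291, 304, 325, 308 and 308 in Ts1Rhr and at 267, 340, 343, 281 and 328 in WT. All 5 Ts1Rhr hearts fell within the WT range. Log2 fold changes were 0.0027 ± 0.12 (SE) and -0.02 ± 0.09 (limma, adjusted P = 1.0 and 0.966).

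Among the mesothelial genes, Upk3b (chr5:136038496-136044993), a uroplakin that marks mesothelium of many organs, had 1559, 1458, 1492, 1217 and 1004 normalised reads in Dp3Tyb and 1440, 1289, 1500, 1398 and 1080 in WT. Replicate 5 was the lowest heart of each group. Ts1Rhr hearts had 1400, 1292, 1559, 1398 and 1198, and their WT littermates 1261, 1364, 1476, 1129 and 1171. The groups overlapped over most of their range, with log2 fold changes of -0.0039 ± 0.13 (SE) in Dp3Tyb and 0.10 ± 0.09 in Ts1Rhr (limma, adjusted P = 1.0 and 0.797). With the lung and foregut score as a covariate the Ts1Rhr value was 0.0074. Upk1b (chr16:38773182-38800203), a tetraspanin that pairs with uroplakin 3 proteins, was at 198, 208, 217, 196 and 213 in Dp3Tyb and at 202, 183, 203, 181 and 270 in WT. WT replicate 5 was again the highest heart, and the other 9 lay within a narrow band. In the other cohort it was at 228, 253, 202, 200 and 166 in Ts1Rhr and at 191, 188, 192, 237 and 169 in WT. Its log2 fold changes were 0.0045 ± 0.11 and 0.10 ± 0.12 (limma, adjusted P = 1.0 and 0.822), and the groups overlapped in each strain.

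Msln (chr17:25748613-25754378), which encodes the mesothelial surface protein mesothelin, varied most. Ts1Rhr hearts were at 260, 163, 274, 253 and 219 and WT hearts at 154, 146, 210, 140 and 289. The 3 WT hearts with over 10% mitochondrial reads were the 3 lowest of the cohort, yet WT replicate 5 was the highest of all 10. The log2 fold change of 0.35 ± 0.21 (SE) had the widest interval of the 10 genes in this strain, 0.931 to 1.73 on the fold scale (limma, adjusted P = 0.795), and without the hearts over 10% mitochondrial reads it was 0.0033. Dp3Tyb hearts were at 218, 297, 262, 225 and 130, against 176, 250, 231, 227 and 179 in WT. The Dp3Tyb group held both the highest and the lowest heart (log2 fold change 0.05 ± 0.20, limma, adjusted P = 1.0).

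Krt19 (chr11:100140810-100145926), a keratin of simple epithelia and mesothelium, was at 668, 610, 756, 544 and 583 in Ts1Rhr and at 532, 534, 627, 567 and 437 in WT. All 5 Ts1Rhr hearts were above the WT mean of 539 ± 69.0 (SD, n = 5), and the groups overlapped between 544 and 627. The log2 fold change was 0.23 ± 0.11 (SE), with an unadjusted P of 0.0569 and an adjusted P of 0.795 in limma, and it was 0.12 once the lung and foregut marker score entered the fit as a covariate. Dp3Tyb hearts were at 513, 563, 678, 546 and 476 and their WT littermates at 549, 550, 489, 603 and 570. Only Dp3Tyb replicate 3 stood above the WT hearts, and the log2 fold change was 0.0010 ± 0.10 (limma, adjusted P = 1.0).

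Aldh1a2 (chr9:71215789-71296243) encodes the retinaldehyde dehydrogenase by which the epicardium makes retinoic acid, a signal for growth of the underlying myocardium. It was at 652, 592, 586, 596 and 566 in Dp3Tyb and at 735, 499, 570, 514 and 575 in WT. The Dp3Tyb hearts lay inside the wider range of the WT hearts. It was at 635, 721, 584, 696 and 761 in Ts1Rhr and at 718, 725, 718, 567 and 559 in WT. The WT hearts formed a high trio and a low pair, with the Ts1Rhr hearts spread across both. The log2 fold changes were 0.06 ± 0.10 (SE) and 0.05 ± 0.10 (limma, adjusted P = 1.0 and 0.878). Over the alternatives run, the value in Ts1Rhr lay between -0.0041 and 0.14.

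The rest of the retinoic acid pathway gave no call either. Of 18 genes for its carriers, enzymes and receptors, 16 were tested in each strain, 13 had a higher mean in Dp3Tyb and 8 in Ts1Rhr, and 0 passed limma after adjustment. The median log2 fold changes were 0.14 and -0.02, beside -0.0027 and -0.0016 over all genes. Stra6, the receptor through which cells take up retinol, had the widest differences, with log2 fold changes of 1.77 ± 0.98 (SE) in Dp3Tyb and -1.59 ± 0.76 in Ts1Rhr (limma, adjusted P = 1.0 and 0.795). These point the same way as the lung and foregut markers in each strain, and the part of lung tissue in them was not tested.

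Sema3d (chr5:12383161-12588953), a secreted semaphorin of the proepicardium that guides vessels and nerves, was at 1049, 928, 1023, 1116 and 1257 in Dp3Tyb and at 1251, 962, 1046, 866 and 1262 in WT. The Dp3Tyb hearts lay within the range of the WT hearts. It was at 1177, 1199, 750, 1069 and 1133 in Ts1Rhr and at 1210, 1153, 1207, 1112 and 1067 in WT. Ts1Rhr replicate 3 stood well below every other heart, and this was also the heart with the lowest summed normalised value of lung and foregut markers. The log2 fold change in Ts1Rhr was -0.13 ± 0.11 (SE; limma, adjusted P = 0.795) and -0.0069 without replicate 3, and that in Dp3Tyb was 0.0045 ± 0.12 (limma, adjusted P = 1.0).

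Other class 3 semaphorins, their neuropilin and plexin receptors were tested as a list of 13 genes. In Dp3Tyb 10 had a higher mean and in Ts1Rhr 8, with median log2 fold changes of 0.04 and 0.03 and 0 genes past the adjusted threshold. Without the hearts over 10% mitochondrial reads these medians were 0.03 and 0.08. Sema3c, which guides cells of the outflow tract, was at 995 ± 110 in Dp3Tyb and 816 ± 49.0 in WT (SD, n = 5), a log2 fold change of 0.28 ± 0.08 (SE) with an unadjusted P of 0.0063 and an adjusted P of 1.0 in limma. In Ts1Rhr, Plxna4, a plexin co-receptor, had a log2 fold change of -0.15 ± 0.07 (limma, unadjusted P = 0.0482, adjusted P = 0.795).

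The effects of the 2 duplications on the members were compared directly. The difference between the log2 fold change in Dp3Tyb and that in Ts1Rhr, tested in limma over all 20 hearts, ran from -0.29 ± 0.31 (SE) for Msln and -0.23 ± 0.15 for Krt19 to 0.13 ± 0.17 for Sema3d, positive for 5 genes and negative for 5. Without the hearts over 10% mitochondrial reads the value for Msln turned to 0.18. Adjusted P-values were 1.0 for all 10. In that test 2 of 15348 genes (0.013%) passed the adjusted threshold and 234 (1.52%) the unadjusted one, with 0 members in either count. Of the 8 lung and foregut genes tested, 8 had a positive difference (median 3.68), with 0 past the adjusted threshold and 6 past the unadjusted one. The lung and foregut score was not fitted as a covariate in this comparison, and its part in the differences of the members was not tested.

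The mean of log2(value + 1) over the 10 genes summarises each heart. In Dp3Tyb it was 9.16, 9.09, 9.12, 9.03 and 8.90, against 9.10, 8.98, 9.04, 9.01 and 8.97 in WT. Replicates 1 and 3 of Dp3Tyb were above every WT heart, and replicate 5 was below every one. In Ts1Rhr it was 9.17, 9.14, 9.08, 9.12 and 9.08, against 9.01, 9.08, 9.15, 8.97 and 8.95 in WT. All 5 Ts1Rhr hearts were above the WT mean and 1 was above the highest WT heart. The group means differed by 0.04 in Dp3Tyb (1.03-fold) and 0.09 in Ts1Rhr (1.06-fold), beside within-group SDs of 0.08 and 0.07. Without the hearts over 10% mitochondrial reads they differed by 0.07 and 0.04. No test was made of this mean, because the genes were chosen with results of these data known.

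**Figure D3:**
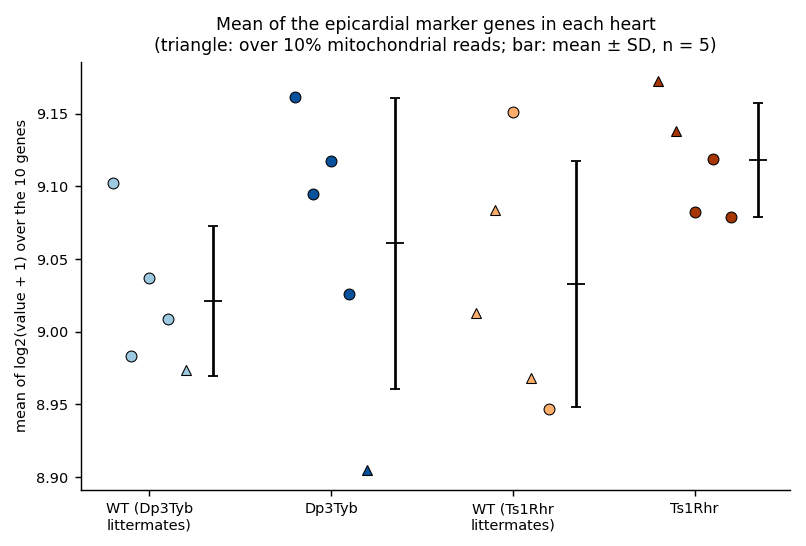
Mean of log2(value + 1) over the 10 epicardial marker genes (vertical axis) in each heart by group, with the group mean ± SD (n = 5) and triangles for hearts with over 10% mitochondrial reads. The vertical axis does not start at 0, and the whole spread of the 20 hearts is 8.90 to 9.17.

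From heart to heart, the genes did not move as one. Correlations are given over the 20 hearts after removal of the group means, as a description, since the hearts share library depth and RNA quality with every gene. Wt1 and Upk1b went together (r = 0.83), and both went against Tcf21 (-0.71 and -0.67). Tcf21, Upk3b, Bnc1 and Tbx18 went together, with r from 0.46 for Tbx18 and Upk3b to 0.72 for Tcf21 and Upk3b and for Upk3b and Bnc1. Over the 45 pairs the median r was 0.08, with 10 pairs over 0.5 (22.2%) and 4 under -0.5 (8.89%), beside 17.5% and 17.4% of all gene pairs.

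The mitochondrial share of reads moved with this division. Against its log2 value, r was 0.90 for Wt1, 0.81 for Upk1b and 0.53 for Sema3d, and -0.79 for Tcf21, -0.70 for Msln, -0.66 for Bnc1 and -0.62 for Upk3b. Over all hearts Tbx18 (-0.18), Aldh1a2 (-0.07) and Krt19 (-0.0024) were near 0, but for Tbx18 the cohorts differed in sign, with -0.69 in that of Dp3Tyb and 0.29 in that of Ts1Rhr. For Wt1 the relation was much the same in each cohort, 0.88 in that of Dp3Tyb and 0.92 in that of Ts1Rhr, and 0.85 without the 2 hearts farthest from the median share. For Tcf21 it was -0.97 and -0.43 in the cohorts, and -0.52 without those 2 hearts. For Upk3b it was -0.81 and -0.29 in the cohorts and -0.29 without those hearts, for Bnc1 -0.68, -0.64 and -0.46, and for Msln -0.65, -0.77 and -0.64. Upk1b had 0.79 and 0.85 in the cohorts and 0.80 without those hearts, and Sema3d 0.60, 0.46 and 0.35. Such relations were common, since 62.6% of 15348 genes had an r above 0.5 or below -0.5, and 18.0% one at least as strong as that of Wt1. The size factor of the library moved with the division as well. Against its log2 value, r was -0.85 for Wt1, -0.81 for Upk1b and -0.49 for Sema3d. It was 0.78 for Tcf21, 0.59 for Bnc1, 0.58 for Msln and 0.53 for Upk3b. Of all genes, 59.0% had an r to it above 0.5 or below -0.5. The parts of library depth, RNA quality and cell composition in the division were not tested.

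**Figure D4:**
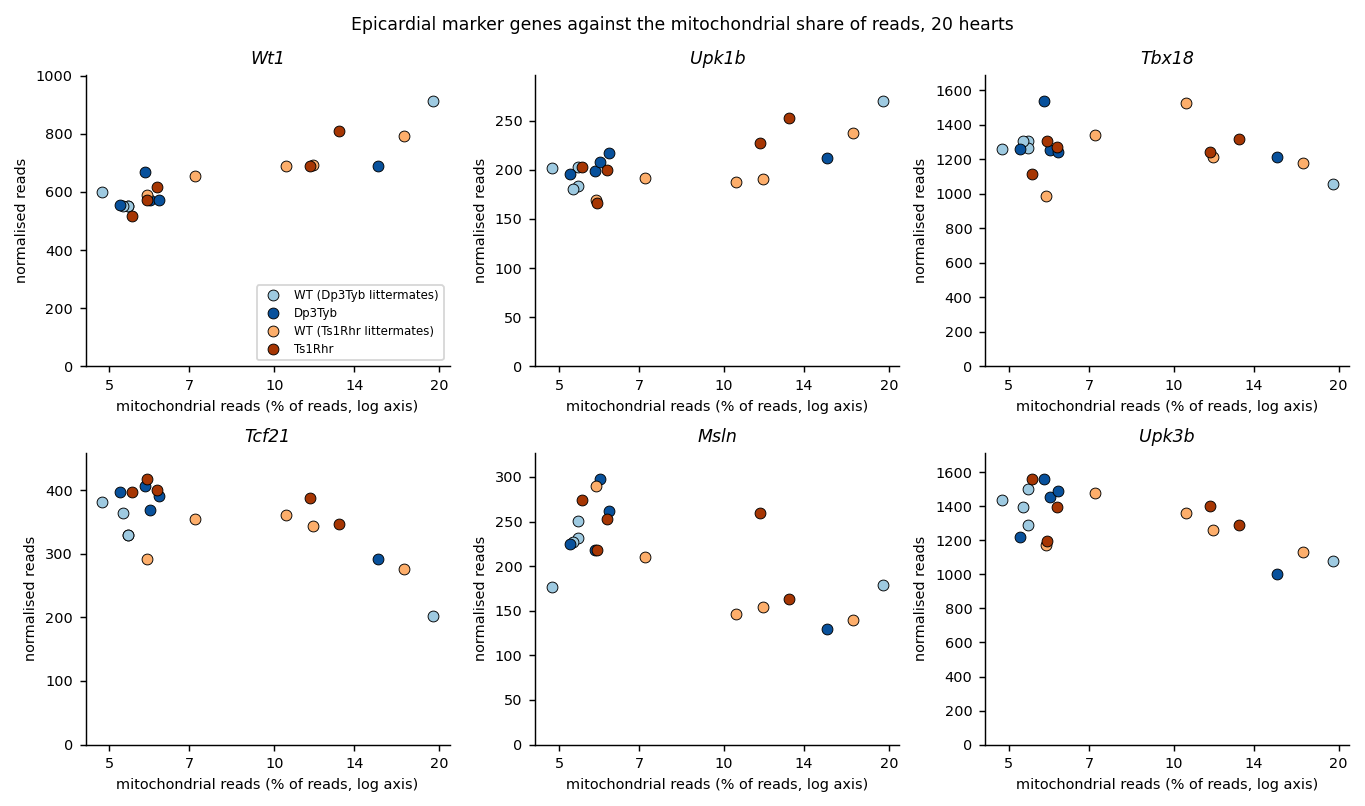
Normalised reads of 6 epicardial marker genes (vertical axes, from 0) against the percentage of mitochondrial reads (log axis) in each of the 20 hearts, coloured by group. Over all 20 hearts Wt1 (r = 0.90) and Upk1b (0.81) tend to be higher and Tcf21 (-0.79) and Msln (-0.70) lower with a larger mitochondrial share, with single hearts that depart from this, such as Ts1Rhr replicate 1 with Msln at 260, while the cohorts of Dp3Tyb and Ts1Rhr differ for Upk3b (r = -0.81 and -0.29) and Tbx18 (-0.69 and 0.29).

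After the mitochondrial share was also removed, the opposition of Wt1 to Tcf21 was gone (r = 0.0036) and the r of Wt1 and Upk1b fell from 0.83 to 0.40. Tbx18 and Tcf21 then had the highest r of all pairs (0.76), followed by Aldh1a2 and Sema3d (0.73). The lung and foregut score was not removed here. With only group means removed, Aldh1a2 and Sema3d had r of 0.57 and 0.49 to it, and its part in their pair was not tested. Upk3b went with Upk1b (0.58), Krt19 (0.53) and Bnc1 (0.53). The other pairs over 0.5 were Tbx18 with Bnc1 (0.56), Wt1 with Aldh1a2 (0.55) and Tbx18 with Aldh1a2 (0.51). Tcf21 and Bnc1 were at 0.24, from 0.64 before, and Tcf21 and Upk3b at 0.48, from 0.72. Msln stood apart, with r of -0.57 to Aldh1a2, -0.54 to Tcf21 and -0.52 to Tbx18. Of the 45 pairs 8 were over 0.5 (17.8%) and 3 under -0.5 (6.67%), beside 5.56% and 5.33% of all gene pairs, and the median was 0.21.

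**Figure D5:**
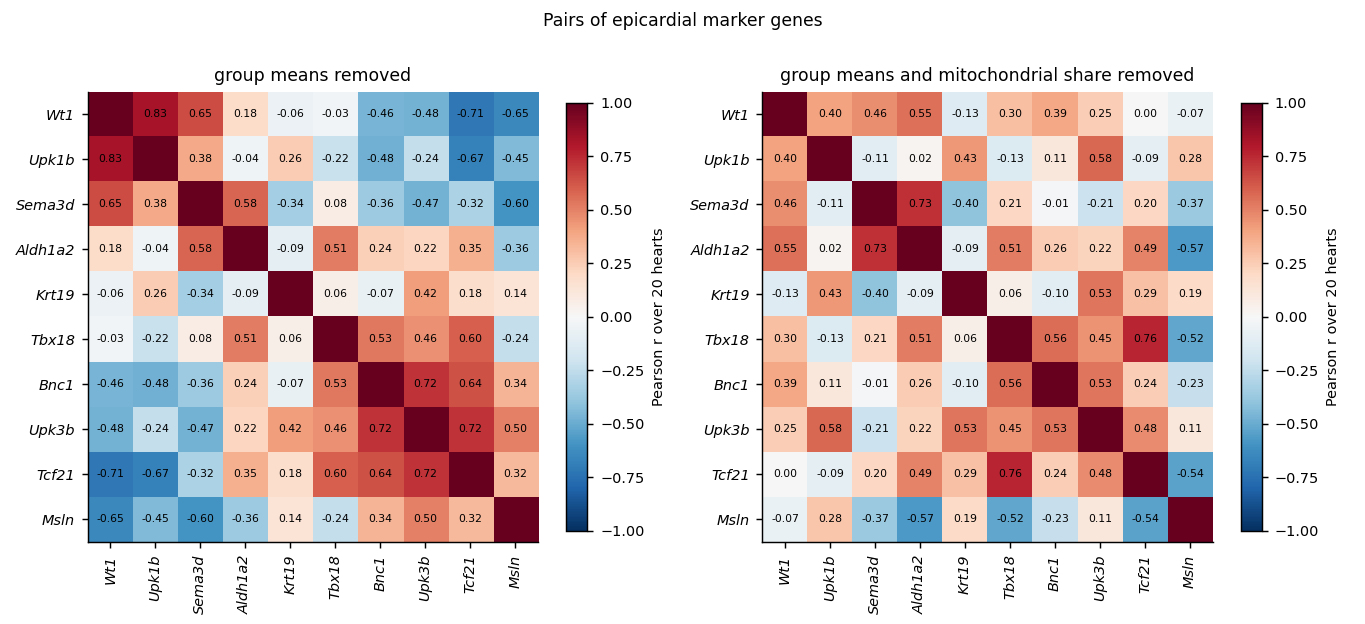
Pearson r of each pair of epicardial marker genes over 20 hearts, after removal of group means (left) and of group means and the mitochondrial share (right), red for positive and blue for negative values. On the left Wt1, Upk1b and Sema3d oppose Tcf21 and Msln, and on the right Tbx18 with Tcf21 (0.76) and Aldh1a2 with Sema3d (0.73) are the strongest pairs.

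With the members themselves left out, the 8 genes most like the member mean were taken by Pearson r over the 20 hearts. They were Abhd13 (0.85), Msmo1 (0.79), Ninl (0.79), Gldc (0.78), Tmed2 (0.77), Mmgt1 (0.77), Phkg2 (0.77) and M6pr (0.76). None belonged to the epicardial lists, but these lists hold few of the genes searched, so an absence among 8 says little about them. Of the wider list described next, Lrrn4 had the highest r to the member mean (0.69). Of the members, Upk3b followed the mean that contains it most closely (0.82), and Wt1 (-0.06), Sema3d (0.04) and Upk1b (0.01) hardly followed it.

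A wider list held 16 genes of epicardium and mesothelium, 15 of them tested. Of these, 9 (60%) had an r to the mitochondrial share above 0.5 or below -0.5, near the 62.6% of all genes. Muc16, a mucin of mesothelium, and Itga4, an integrin that anchors the epicardium, went with Wt1 (r = 0.76 and 0.84) and with the mitochondrial share (0.89 and 0.85). Nkain4 and the keratin Krt7 went with Upk3b (0.64 and 0.74) and against the mitochondrial share (-0.93 and -0.87). Lrrn4, a mesothelial surface protein, went with Upk3b (0.57) and showed little relation to the mitochondrial share (0.09). Gpm6a (0.07), Krt18 (-0.17), Sfrp5 (0.23), Efemp1 (0.35) and Gata5 (0.37) were also within these limits. In limma 11 of the 15 had a higher mean in Dp3Tyb and 8 in Ts1Rhr, with median log2 fold changes of 0.07 and 0.0092 and 0 calls. The smallest unadjusted P in Dp3Tyb was that of Krt8, at 194 ± 58.5 against 130 ± 37.5 in WT (SD, n = 5; limma, unadjusted P = 0.0371, adjusted P = 1.0).

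Genes of the mesenchyme to which the epicardium contributes, 20 in number, also gave 0 calls. In Dp3Tyb 14 and in Ts1Rhr 15 had a higher mean, with median log2 fold changes of 0.11 and 0.09. Snai1, a repressor that acts in EMT, was at 160 ± 18.2 in Dp3Tyb and 127 ± 30.2 in WT (SD, n = 5), a log2 fold change of 0.35 ± 0.16 (SE; limma, unadjusted P = 0.0471, adjusted P = 1.0). In Ts1Rhr the smallest unadjusted P belonged to Tagln, a gene of smooth muscle, with a log2 fold change of 0.21 ± 0.10 (limma, unadjusted P = 0.0562, adjusted P = 0.795).

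Other tissue was present in some hearts. The summed value of 9 lung and foregut markers ran from 112 to 775 in Dp3Tyb hearts, from 19.8 to 610 in their WT littermates, from 18.6 to 512 in Ts1Rhr and from 210 to 651 in the WT hearts of that cohort. In 5 hearts, WT replicates 2, 4 and 5 of the Dp3Tyb cohort and Ts1Rhr replicates 1 and 3, the sum was 18.6 to 44.0, and Nkx2-1, the defining factor of lung epithelium, was at 0 in 4 of them. The member mean was 8.97 to 9.17 in those 5 hearts and 8.90 to 9.16 in the other 15. For Aldh1a2 the ranges were 499 to 635 and 559 to 761, and for Sema3d 750 to 1262 and 928 to 1257. The part of lung tissue in the values of the members was not tested. Sftpc, a surfactant gene of lung epithelium, was at 0 in 15 of 20 hearts.

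Of single members, Aldh1a2 (r = 0.57) and Sema3d (0.49) were higher and Krt19 (-0.42) lower where the lung and foregut score was high, over 20 hearts with group means removed. Without the 2 hearts farthest from the median score these values were 0.36, 0.23 and -0.36. An r above 0.5 or below -0.5 was found for 1 of 10 members, near the 12.1% of all genes, and 8.61%, 12.9% and 17.4% of all genes had one at least as strong as these 3. The other 7 members had r between -0.25 and 0.17 over all hearts, but for Upk3b the cohorts differed, with 0.18 in that of Dp3Tyb and -0.58 in that of Ts1Rhr. Of the 8 lung and foregut genes tested, 8 had a higher mean in Dp3Tyb and 0 in Ts1Rhr (median log2 fold changes 1.89 and -1.70), with 0 calls in either.

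Macrophage markers had a higher mean for 8 of 8 genes in each strain, with median log2 fold changes of 0.24 in Dp3Tyb and 0.33 in Ts1Rhr, and cardiomyocyte markers for 4 of 10 and 2 of 10, with medians of -0.09 in each. Endothelial and endocardial markers had a higher mean for 4 of 8 and 6 of 8 genes (medians -0.0020 and 0.05), and the erythroid markers for 6 of 6 and 6 of 7 (0.15 and 0.26). Of 8 liver markers only 2 were tested, Afp and Ahsg. Their log2 fold changes were 0.32 and -0.82 in Dp3Tyb, where Ahsg had an unadjusted P of 0.0101 in limma. In Ts1Rhr they were -0.16 and -0.73. None of these genes passed the adjusted threshold in limma. At an unadjusted P-value below 0.05, 4 of 8 macrophage markers passed in Ts1Rhr and 1 of 8 in Dp3Tyb, beside 5.52% and 2.8% of all genes. So did 1 of 10 cardiomyocyte markers and 1 of 8 lung and foregut genes in Ts1Rhr, and 1 of 2 liver markers in Dp3Tyb. Without the hearts over 10% mitochondrial reads the erythroid median in Ts1Rhr was -0.13 and the macrophage median in Dp3Tyb was 0.09.

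Within Ts1Rhr, the 2 hearts labelled as having defects were higher in Wt1 (691 and 809 against 516 to 616 in the other 3), in Upk1b (228 and 253 against 166 to 202) and in Sema3d (1177 and 1199 against 750 to 1133), and lower in Tcf21 (347 and 388 against 398 to 417) and Bnc1 (291 and 304 against 308 to 325). That made 5 of 10 members without overlap, near the 46.8% of all 14867 genes tested that separate the same hearts. The other 5 genes overlapped, and the member mean was 9.14 and 9.17 against 9.08 to 9.12. These 2 hearts were also the 2 Ts1Rhr hearts with over 10% mitochondrial reads, so the label and the mitochondrial share cannot be told apart, and no test was made on 2 hearts.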

How the data were processed

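RNAseq of poly(A) RNA from 20 E13.5 hearts was analysed, 5 per group. The authors deposited 1 table of 48795 Ensembl mouse genes with normalised values, a signal equal to reads divided by a library size factor. The submitters' processing notes name Trimmomatic 0.36, STAR 2.5.2a, RSEM 1.2.31, DESeq and DESeq2 and the build GRCm38; annotation and strand setting are not given in the sources used here. In every library 100% of values were whole multiples of 1 step (tolerance 1e-06), so whole reads were recovered, and these steps matched size factors by the median of ratios computed over all 20 libraries. Each library held 6.60 M to 19.6 M reads. Reads carry no molecular identifiers, so counting error is a lower limit.

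Groups came from the genotype labels, and the controls, marked only with an initial of their strain, were read as its littermates. No 2 libraries of a group agreed within sampling noise. The 10 members and the other 10 gene lists were chosen with earlier results of these data known. Symbols matched GENCODE vM39 for 91.3% of identifiers; transcript lengths are those of its canonical transcripts, and positions and promoters are from RefSeq (GRCm38.p6). Values as log2(value + 1) were tested with limma 3.58.1 (R 4.3.3; trended, robust, 2-sided, Benjamini-Hochberg over all genes, threshold 0.05) in the 10 libraries of a cohort, and in all 20 for the difference between strains. A gene was tested where 5 or more of the libraries fitted had a value of 10 or more. A fold change on this scale understates that of low genes. The code was tested on simulated data.

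Named genes were the 10 members, at most 4 genes per list and comparison (smallest P), and the 8 genes most like the member mean; genes of the wider list named for their correlations (Muc16, Itga4, Nkain4, Krt7, Lrrn4, Gpm6a, Krt18, Sfrp5, Efemp1 and Gata5) and Nkx2-1 and Sftpc were chosen after their values were seen. Alternatives were a pseudocount of 10, no filter, and DESeq2 1.42.0 and edgeR 4.0.16 (quasi-likelihood, TMM) on recovered reads. Others left out libraries over 10% mitochondrial reads or each replicate. For the comparisons within a strain only, all libraries in 1 fit and a lung and foregut covariate were also run. The mitochondrial share as a covariate was added after the data were seen.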

Additional observations from a re-analysis of the deposited data

Results flagged for a closer look

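In 44 groups of 5 hearts (the 10 genes and their mean in 4 groups), 5 values stood apart from the other 4 of their group by more than Dixon's 95% limit, where chance alone gives about 1 group in 20, or 2.2 of 44. They came from 3 hearts, with 3 of the 5 from a single library, so the flags are not independent of one another. Wt1 was 913 in WT replicate 5 of the Dp3Tyb cohort, beside 550 to 600 in the other WT hearts. In the same heart Upk1b was 270, beside 181 to 203, and Tbx18 was 1057, beside 1260 to 1309. That library had 19.5% mitochondrial reads, the most of all 20, and the fewest reads, 6.60 M. Tbx18 was 1539 in Dp3Tyb replicate 1, beside 1214 to 1258 in the other Dp3Tyb hearts, with 5.80% mitochondrial reads. Sema3d was 750 in Ts1Rhr replicate 3, beside 1069 to 1199, with 5.50% mitochondrial reads.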

How the results depend on the processing

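Under 18 alternatives per strain and under those of the difference between strains, 0 members passed the adjusted threshold; the lowest adjusted P was 0.213 (Tcf21, Dp3Tyb, mitochondrial covariate) in Dp3Tyb, 0.423 in Ts1Rhr and 0.714 between strains. The sign of a member's log2 fold change turned in 41 of 180 values in Dp3Tyb and 9 of 180 in Ts1Rhr, all for members whose log2 fold change lay between -0.02 and 0.06. In Dp3Tyb these were, without libraries over 10% mitochondrial reads, Wt1 0.071, Upk3b 0.022 and Bnc1 -0.042; with the lung and foregut covariate, Wt1 0.036, Aldh1a2 -0.031, Sema3d -0.073 and Bnc1 -0.024; with DESeq2, Upk3b 0.0021 and Bnc1 -0.011; with edgeR, Upk3b 0.0042 and Bnc1 -0.0049; and with the mitochondrial covariate, Krt19 -0.0011 and Bnc1 -0.0071. The cause was not tested. Leaving out 1 heart at a time gave, in Dp3Tyb, -0.068 to 0.12 for Wt1, -0.079 to 0.097 for Upk3b, -0.041 to 0.10 for Upk1b, -0.059 to 0.24 for Msln, -0.073 to 0.054 for Krt19, -0.070 to 0.065 for Sema3d and -0.080 to 0.045 for Bnc1, and in Ts1Rhr -0.067 to 0.089 for Tbx18, -0.0041 to 0.10 for Aldh1a2 and -0.069 to 0.021 for Bnc1. A further 67 of 180 values in Dp3Tyb and 51 of 180 in Ts1Rhr moved by over 1.5 times with their sign kept. In Dp3Tyb these include Tbx18 (0.0076 without Dp3Tyb replicate 1, 0.013 without WT replicate 5) and Aldh1a2 (0.15 without WT replicate 1, 0.011 without WT replicate 2), and in Ts1Rhr Wt1 (-0.0095 with the mitochondrial covariate, -0.03 without Ts1Rhr replicate 3, -0.19 without Ts1Rhr replicate 2), Upk1b (0.03 without Ts1Rhr replicate 2, 0.18 without Ts1Rhr replicate 5) and Upk3b (0.05 without Ts1Rhr replicate 3, 0.15 without WT replicate 3). Tcf21 kept its sign, from 0.074 to 0.31 in Dp3Tyb and 0.21 to 0.33 in Ts1Rhr. The difference between strains changed sign in 28 of 260 values. Without libraries over 10% mitochondrial reads that of Msln, the largest, was 0.18, with Tbx18 -0.055, Upk1b 0.023 and Aldh1a2 -0.012, and with the mitochondrial covariate Tcf21 was 0.032; leaving out 1 heart gave -0.020 to 0.14 for Tbx18, -0.19 to 0.049 for Tcf21, -0.17 to 0.0053 for Upk1b, -0.044 to 0.099 for Aldh1a2 and -0.065 to 0.072 for Bnc1. The difference in the mean over the members moved by less than the within-group SD under the alternatives run, but by over 1.5 times in several: in Dp3Tyb from 0.040 to 0.015 without Dp3Tyb replicate 1, 0.026 without Dp3Tyb replicate 3, 0.060 without WT replicate 1, 0.079 without Dp3Tyb replicate 5, 0.067 without libraries over 10% mitochondrial reads and 0.025 with the lung and foregut covariate (added for this mean after the data were seen), and in Ts1Rhr from 0.085 to 0.044 without those libraries. No paired analysis was possible because no label ties a mutant heart to a WT heart, and the replicate numbers used here follow the listing of the libraries and pair no hearts.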
